A study of Mus musculus with 8 samples.

Results

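The genes described here act in the growth of the autophagosome membrane or, for Epg5, in its tethering to the lysosome. They are Atg2a and Atg2b, Atg9a and Atg9b, Wipi1, Wipi2, Wdr45, Wdr45b, Vmp1 and Epg5. They were chosen by name for their known roles in lipid transfer, lipid scrambling, binding of phosphatidylinositol 3-phosphate (PI3P) and tethering. Earlier results of these data were known when the choice was made. All 10 were found among the 55276 gene symbols of the count table, and all 10 were among the 17344 genes with enough counts to be tested.

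Autophagy encloses cytoplasm in a growing membrane cup, the phagophore, which closes into an autophagosome and fuses with a lysosome. ATG2 proteins are rod-shaped bridges that carry phospholipids from the endoplasmic reticulum to the phagophore. ATG9 in the phagophore and VMP1 in the endoplasmic reticulum are scramblases, which move lipids between the leaflets of a membrane. The 4 WIPI proteins, named WIPI1, WIPI2, WDR45B (WIPI3) and WDR45 (WIPI4), are propeller-shaped proteins that bind PI3P on the young membrane. EPG5 acts last, as a tether between the finished autophagosome and the lysosome.

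RNA was sequenced in bulk from esophageal epithelium of C57BL6 mice aged 14 to 15 weeks, in 8 libraries. The epithelium was peeled from the muscle and dispersed with dispase and trypsin, and cells that excluded DAPI and carried integrin-b1 were sorted by Cyto-ID, a fluorescent dye taken up into autophagic vesicles. Cyto-ID Low is the fraction with little dye and Cyto-ID High the one with much, written below as Low and High. Each of 4 animals (Female1, Female2, Male1 and Male2) gave both fractions, so each fraction had 4 libraries, and no allele or agent was named for either.

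The libraries held 26285150 to 29301054 counts. Markers of basal keratinocytes were lower in High for 10 of 10 genes, with a summed level of 2882 to 4577 CPM (counts scaled to library depth) against 22032 to 26255 in Low. Itgb1, which encodes the integrin-b1 used in the sort, was among them, at 370 ± 32 CPM in Low and 68.2 ± 18.2 in High (SD). Markers of suprabasal keratinocytes, the differentiated layers above, were higher for 11 of 12 genes, at a summed 148822 to 248874 CPM against 9905 to 27404. No gene of either list was at 0 throughout a fraction. Markers of gastric epithelium summed to 0.241 to 18.4 CPM in Low and 0.347 to 111 in High, the highest in each being Female2. All results below therefore compare fractions that also differ in keratinocyte markers, and the part of that difference in them was not tested. In bulk RNA, fewer cells of a type and less RNA per cell cannot be told apart.

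Across the set, edgeR's quasi-likelihood test with Benjamini-Hochberg adjustment over all tested genes called 5 members higher in High (Atg2b, Atg9a, Atg9b, Wipi2 and Epg5). It called 1 lower (Wdr45), and 4 did not pass (Atg2a, Wipi1, Wdr45b and Vmp1). Among all tested genes 23.4% were called higher and 25.3% lower, 48.7% in all. The levels of 6 of the 10 members did not overlap between the fractions, where 48.6% of all tested genes did not. The median log2 fold change was 0.21 over the members and −0.090 over all genes. These calls rest on libraries scaled with edgeR's TMM factors, and levels are TMM-scaled CPM unless another scale is named.

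The calls depended on how libraries were scaled. The suprabasal keratin genes Krt4 and Krt13 together held 12.1% of counts in High and 1.71% in Low, and their part in the shift given next was not tested. With libraries scaled by total counts alone, the median log2 fold change of all genes moved by −0.55, to −0.64. The test then called 12.6% of genes higher and 49.1% lower. Of the members 1 was then higher (Atg9a) and 3 were lower (Atg2a, Wdr45 and Wdr45b), with a median of −0.35. A change of scaling shifts all genes of a library alike, so values relative to the median of all genes are nearly the same under both by construction and are given only as each member's place. Under TMM and total counts that relative log2 fold change was 1.21 and 1.18 for Atg9a, 1.09 and 1.11 for Atg9b, 0.63 and 0.62 for Epg5, and 0.57 and 0.56 for Atg2b. It was 0.47 and 0.45 for Wipi2, −0.51 and −0.51 for Wdr45, and −0.52 and −0.46 for Wipi1.

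**Figure D1:**
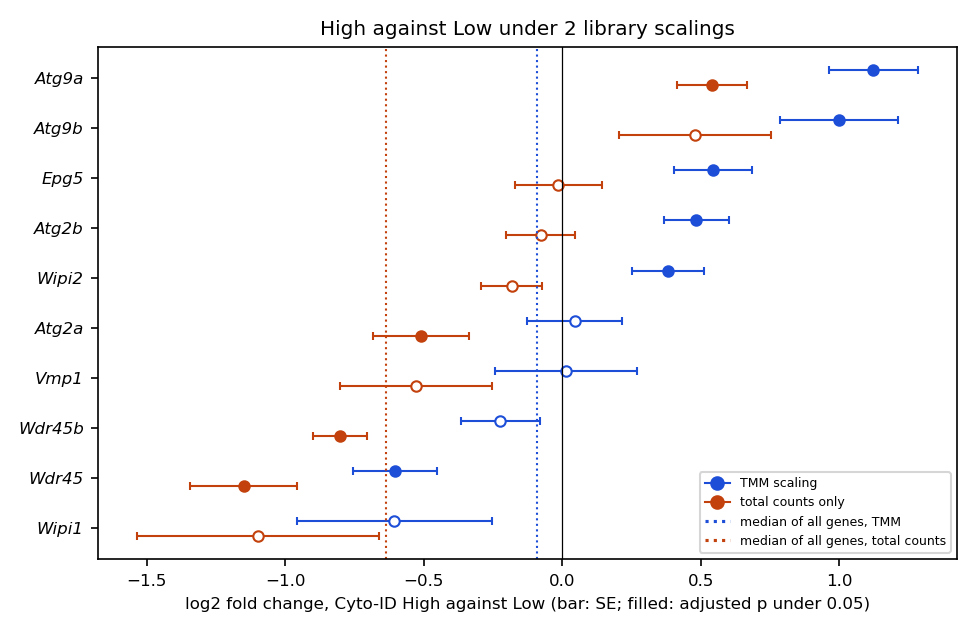
Log2 fold change of Cyto-ID High against Cyto-ID Low for the 10 genes (points) with its standard error (bars), with TMM scaling in blue and scaling by total counts alone in red; filled points have an adjusted p under 0.05 and dotted lines mark the median of all tested genes. With total counts the points and the line move left together, which takes Atg2a, Atg2b, Wipi2, Vmp1 and Epg5 from above to below 0 and leaves Atg9a and Atg9b above it.

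The sequence before the start of transcription is shown for one gene that rose, Atg9b, and one that did not pass the test, Atg2a. The windows are the 250 bases before the RefSeq start (GRCm38.p6), on the strand of the gene, and these are printed because no annotated exon lies in them, as is also true of the window at a downstream start of Vmp1, which is not shown. Atg9b lies at chr5:24392144-24392393 on the minus strand and Atg2a at chr19:6241418-6241667 on the plus strand. Capitals mark every match, on either strand, to the E-box core CACGTG, the GC box GGGCGG, the CCAAT box and TATAAA.
Atg9b: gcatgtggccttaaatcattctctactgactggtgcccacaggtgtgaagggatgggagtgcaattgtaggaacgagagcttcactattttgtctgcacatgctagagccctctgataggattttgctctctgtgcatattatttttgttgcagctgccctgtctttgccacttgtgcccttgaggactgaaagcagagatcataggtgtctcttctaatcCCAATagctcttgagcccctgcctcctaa
Atg2a: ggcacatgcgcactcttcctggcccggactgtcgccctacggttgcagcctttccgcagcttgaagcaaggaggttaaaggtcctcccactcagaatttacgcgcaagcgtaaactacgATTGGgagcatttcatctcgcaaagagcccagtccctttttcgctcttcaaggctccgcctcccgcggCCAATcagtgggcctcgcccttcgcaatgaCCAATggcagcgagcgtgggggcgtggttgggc

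The windows differ in CpG content. The Atg9b window held 1 CpG and 47.6% G and C, and the Atg2a window held 19 CpG and 59.6%. This contrast did not follow the calls: the windows of Atg9a, Atg2b and Wipi2, also called higher, held 15, 25 and 35 CpG, and that of Wdr45, called lower, held 3. Unlike the printed windows, those of Atg9a and Wipi2 lie wholly in annotated exons, as do 217 bases of that of Atg2b and 31 of that of Wdr45. The windows of Wipi2 and Wdr45 also lie inside the annotated range of the gene. The median over all 32851 windows was 6 CpG and 52.4%, and 18.8% of windows held at most 1 CpG. Atg9b had 1 CCAAT match and Atg2a had 3, where 33.8% of all windows had any. CACGTG stood in 6.02% of all windows, GGGCGG in 32.7% and TATAAA in 12.4%. RefSeq windows were found for 8 of the 10 genes, not for Wdr45b and Epg5, and no window of the 8 held CACGTG. The Wipi1 window held 8 GC boxes, a number reached by 0.155% of all windows.

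Atg9a and Atg9b showed the largest differences among the 10 genes under TMM scaling, and by total counts those of Wdr45, Wipi1 and Wdr45b were larger in size. Atg9a encodes the broadly expressed scramblase whose small vesicles seed the phagophore, and lies at chr1:75180860-75192196 (minus strand, GRCm38). In Low it stood at 15.0 CPM (Female1), 17.7 (Female2), 18.7 (Male1) and 16.8 (Male2). In High it stood at 27.7, 36.1, 37.2 and 49.2 CPM in the same order. The lowest High library was thus above the highest Low library, and Male2 showed the widest gap. Mean levels were 17.0 ± 1.6 in Low and 37.6 ± 8.9 CPM in High (SD, 4 libraries each), which gave a log2 fold change of 1.12 (SE 0.16, 2.18-fold, adjusted p = 0.000326, edgeR quasi-likelihood test). By total counts it was 0.54 (adjusted p = 0.00546), so Atg9a passed under both scalings.

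Atg9b, the paralog with a narrower tissue range, lies at chr5:24384181-24392143 (minus strand). Its levels in Low were 35.9 CPM (Female1), 32.2 (Female2), 20.4 (Male1) and 26.1 (Male2). In High they were 81.0, 46.4, 60.7 and 38.3 CPM. Every animal was higher in High and the fractions did not overlap, but the High levels of Female2 and Male2 lay closer to Low than those of Female1 and Male1. Means were 28.7 ± 6.8 and 56.6 ± 18.7 CPM, and the log2 fold change was 1.00 (SE 0.21, 2.00-fold, adjusted p = 0.00343, edgeR). Scaled by total counts it was 0.48, with an adjusted p of 0.163.

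The order of the animals was different for the paralogs. In High, Male2 was highest for Atg9a and lowest for Atg9b, and Female1 was lowest for Atg9a and highest for Atg9b. The count ratio of Atg9a to Atg9b in High was 0.341 (Female1), 0.779 (Female2), 0.612 (Male1) and 1.28 (Male2). In Low it was 0.417, 0.549, 0.913 and 0.647. The log2 ratio was −0.72 ± 0.47 in Low and −0.56 ± 0.79 in High (SD over 4 libraries), a difference of 0.16 (two-sided exact permutation p = 0.771). It was higher in High in 2 animals and lower in the others. Without Low Female1 the difference was −0.023, and without High Male2 it was −0.15.

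Over the 8 libraries, the genes whose log2 CPM ran most like Atg9a were Tor1a, Ndor1 and Sec24c, with Pearson r of 0.997, 0.996 and 0.995. Sec24c encodes a cargo subunit of the COPII coat and Tor1a the torsin ATPase of the endoplasmic reticulum. Those most like Atg9b were Lce3f, Upp1 and Defb14, with r of 0.990, 0.988 and 0.985. Lce3f encodes a late cornified envelope protein, Upp1 uridine phosphorylase and Defb14 a beta-defensin. The points of each r share the difference between the fractions.

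**Figure D2:**
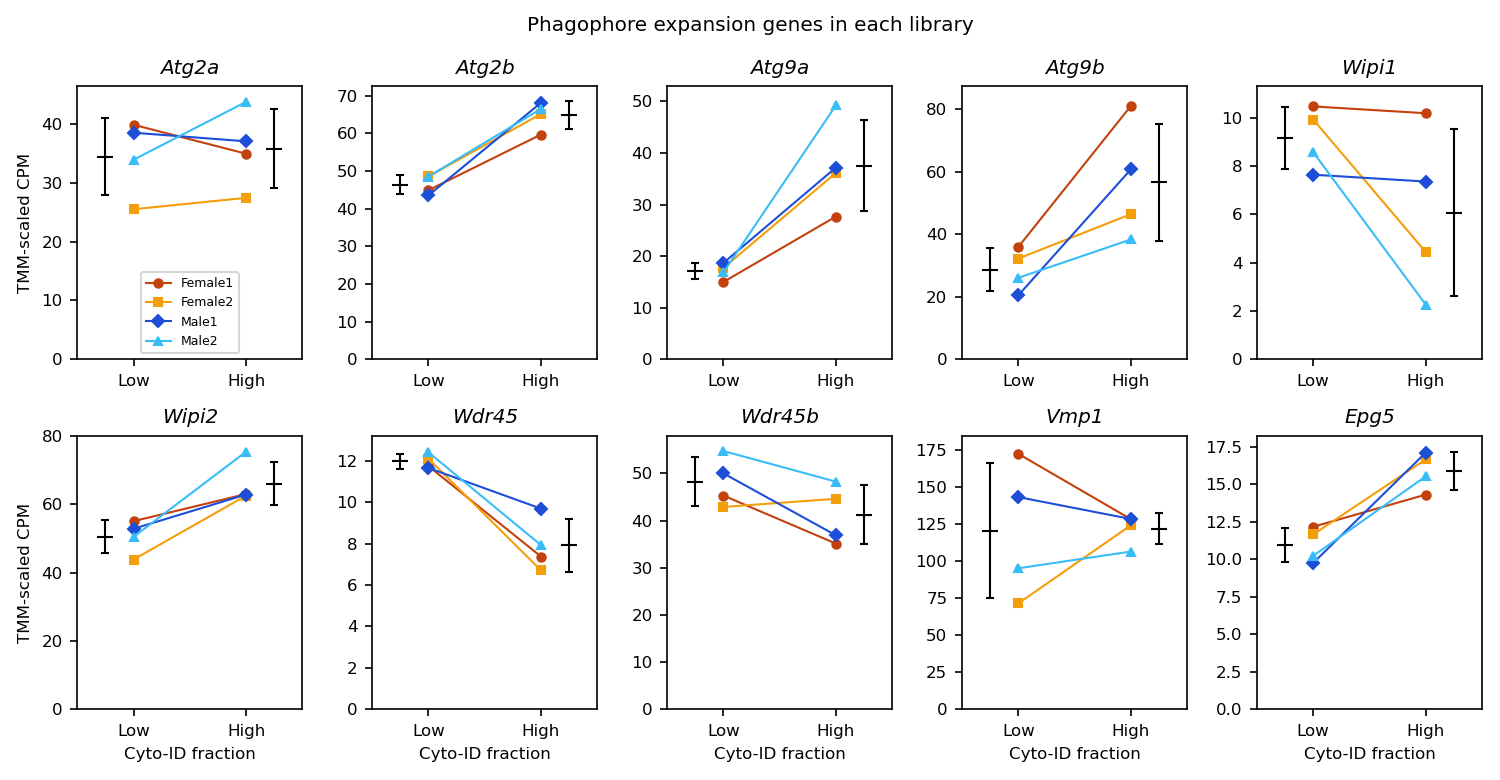
TMM-scaled CPM of each gene in Cyto-ID Low and Cyto-ID High, with 1 line per animal and black bars for the mean and SD of 4 libraries. All 4 lines rise for Atg2b, Atg9a, Atg9b, Wipi2 and Epg5 and all fall for Wdr45, while by total counts the mean differences of Atg2b, Wipi2 and Epg5 lie below 0.

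Of the lipid carriers, Atg2b passed the test and Atg2a did not, and the ratio of the pair, given after them, did not pass either. Atg2b (chr12:105616136-105685211, minus strand) encodes one of the bridge-like lipid carriers. It stood at 44.9, 48.6, 43.5 and 48.5 CPM in the Low libraries of Female1, Female2, Male1 and Male2. In High it stood at 59.7, 65.2, 68.1 and 66.5 CPM. Both fractions were narrow and did not overlap. The means were 46.4 ± 2.6 and 64.9 ± 3.7 CPM, with a log2 fold change of 0.48 (SE 0.12, 1.40-fold, adjusted p = 0.00682, edgeR) that was −0.078 by total counts (adjusted p = 0.610).

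Atg2a (chr19:6241668-6262335, plus strand) encodes the other carrier. It stood at 39.8, 25.5, 38.5 and 33.9 CPM in Low and at 34.9, 27.4, 37.0 and 43.7 in High, in the same order of animals. The fractions overlapped, and 2 animals were higher and 2 lower in High. The means of 34.4 ± 6.5 and 35.8 ± 6.7 CPM gave a log2 fold change of 0.046 (SE 0.17, adjusted p = 0.859, edgeR). It was −0.51 by total counts (adjusted p = 0.0305), −0.037 without Low Female2 and −0.026 without High Male2.

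The ratio of the pair needs no library scaling. Counts of Atg2a per count of Atg2b were 0.887, 0.525, 0.884 and 0.698 in Low and 0.585, 0.421, 0.543 and 0.657 in High. The ratio was lower in High in 4 of 4 animals, although the fractions overlapped. The log2 ratio went from −0.45 ± 0.36 to −0.88 ± 0.27, a difference of −0.43 (two-sided exact permutation p = 0.143, adjusted over 4 ratios 0.190). With 4 against 4 libraries the smallest exact p is 0.0286.

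Vmp1 encodes the scramblase of the endoplasmic reticulum that works with ATG2, and lies at chr11:86583865-86683836 (minus strand). Its levels in Low were 172 CPM (Female1), 71.3 (Female2), 143 (Male1) and 95.0 (Male2). In High they were 128, 124, 128 and 106 CPM. The Low libraries spread widely around the narrow High range, with Female1 and Male1 above it and Female2 and Male2 below. Means were 120 ± 46 and 122 ± 10 CPM, and the log2 fold change was 0.015 (SE 0.26, adjusted p = 0.971, edgeR). The direction changed without single libraries, to −0.18 without Low Female2, −0.053 without Low Male2 and −0.029 without High Male1, and it was −0.53 by total counts (adjusted p = 0.125).

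The Vmp1 locus also holds the gene of miR-21a. Its hairpin (chr11:86584067-86584158, minus strand) lies in the untranslated part of the last exon of 1 of the 8 annotated Vmp1 transcripts. The mature strand at chr11:86584120-86584141 is shown with its seed in capitals.
miR-21a-5p: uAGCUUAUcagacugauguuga
The table listed 0 counts for Mir21a in all 8 libraries, and how the counting treated reads in the shared 92 bases is not given in the sources used here.

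Tmem41b, which encodes the related scramblase that acts beside VMP1, rose where Vmp1 did not pass. It stood at 22.8, 14.7, 18.5 and 18.9 CPM in Low and at 34.6, 44.5, 39.0 and 39.4 in High. All 4 animals were higher in High. The log2 fold change was 1.07 (SE 0.16, 2.10-fold, adjusted p = 0.000469, edgeR), and 0.51 by total counts (adjusted p = 0.0165). The difference between the changes of Tmem41b and Vmp1 was not tested.

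Among the PI3P binders, Wipi2 was higher (but −0.18 by total counts) and Wdr45 lower in High. Wipi2 (chr5:142627698-142670588, plus strand) encodes the protein that brings ATG16L1, and with it the LC3 conjugation machinery, to the phagophore. It stood at 55.1, 43.8, 52.8 and 50.5 CPM in Low and at 63.0, 62.6, 62.9 and 75.4 in High. The fractions did not overlap, and 3 of the High libraries were nearly equal with Male2 above them. Means of 50.6 ± 4.9 and 66.0 ± 6.3 CPM gave a log2 fold change of 0.38 (SE 0.13, 1.30-fold, adjusted p = 0.0335, edgeR), and −0.18 by total counts (adjusted p = 0.183). The call was lost without High Female1 (0.39, adjusted p = 0.0543), Female2 (0.39, 0.0573) or Male2 (0.32, 0.0892).

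Wdr45 (chrX:7714333-7728206, plus strand) encodes WIPI4, which binds ATG2. It stood at 11.7, 12.1, 11.6 and 12.4 CPM in Low, and at 7.37, 6.70, 9.69 and 7.92 in High. The Low libraries were almost identical and every High library lay below them. The means were 12.0 ± 0.35 and 7.92 ± 1.28 CPM, a log2 fold change of −0.60 (SE 0.15, 1.52-fold lower, adjusted p = 0.00791, edgeR). By total counts it was −1.15 (adjusted p = 0.000829). The adjusted p was 0.0513 with both Male2 libraries left out (log2 fold change −0.54) and 0.0580 with both Female2 libraries left out (−0.49).

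Wdr45b (chr11:121327224-121354445, minus strand) encodes WIPI3, the closest relative of WIPI4. Its levels were 45.3, 42.9, 50.0 and 54.8 CPM in Low and 35.1, 44.6, 36.9 and 48.3 in High. The fractions overlapped, with 3 animals lower and Female2 slightly higher in High. Means of 48.2 ± 5.3 and 41.2 ± 6.3 CPM gave a log2 fold change of −0.22 (SE 0.14, adjusted p = 0.227, edgeR), and −0.80 by total counts (adjusted p = 0.000154). The count ratio of Wdr45 to Wdr45b was 0.259, 0.282, 0.233 and 0.227 in Low and 0.210, 0.150, 0.263 and 0.164 in High. The log2 ratio differed by −0.37 (−2.00 ± 0.15 against −2.38 ± 0.36, two-sided exact permutation p = 0.143, adjusted 0.190) and was lower in 3 of 4 animals.

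Wipi1 (chr11:109573331-109611967, minus strand) encodes the PI3P binder often used as a marker of forming autophagosomes. In Low it stood at 10.5 CPM (Female1), 9.92 (Female2), 7.64 (Male1) and 8.57 (Male2). In High it stood at 10.2, 4.44, 7.36 and 2.26 CPM. Female1 and Male1 were nearly level between the fractions, while Female2 and Male2 were far lower in High, with per-animal log2 differences of −0.039, −1.15, −0.054 and −1.89 in the same order. Means of 9.15 ± 1.28 and 6.06 ± 3.45 CPM gave a log2 fold change of −0.61 (SE 0.35, adjusted p = 0.191, edgeR). It was −0.34 without High Male2, where 44 reads of Wipi1 were counted, −0.91 without High Female1 and −0.95 without High Male1. By total counts it was −1.10 (adjusted p = 0.0543).

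Marker sums for fibroblasts, leukocytes, endothelium and muscle had the same order in the High libraries as Wipi1. Atg9b and the number of genes with counts shared this order (27395 in Female1, 26623 in Male1, 24820 in Female2 and 22208 in Male2). So did the TMM factors, at 0.944, 0.896, 0.792 and 0.679. The gastric sum did not, at 0.347 CPM in Female1 and 111 in Female2. Orders of single markers were not compared. The summed level of 8 fibroblast markers was 479 CPM in Female1, 346 in Male1, 163 in Female2 and 57.2 in Male2. That of 10 leukocyte markers was 96.0, 70.6, 34.5 and 9.77 CPM in this order, and that of 8 endothelial markers 38.2, 23.9, 12.2 and 3.14. That of 8 muscle markers was 49.1, 32.0, 16.4 and 1.34 CPM. In Low the sums ran from 387 to 559 CPM for fibroblast, 57.7 to 94.5 for leukocyte, 16.2 to 30.6 for endothelial and 19.8 to 36.6 for muscle markers. In Low, Wipi1 ran from Female1 through Female2 and Male2 to Male1. The muscle sum had this order too, while the fibroblast sum was highest in Male2, and the leukocyte and endothelial sums were highest in Female1 and next in Male2. No marker of these lists was at 0 throughout a fraction. Between the fractions 2 of 8 fibroblast markers were lower, and of 9 tested leukocyte markers 1 was higher and 1 lower. The part of these cells, of the number of genes with counts or of the TMM factors in the Wipi1 level was not tested.

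**Figure D3:**
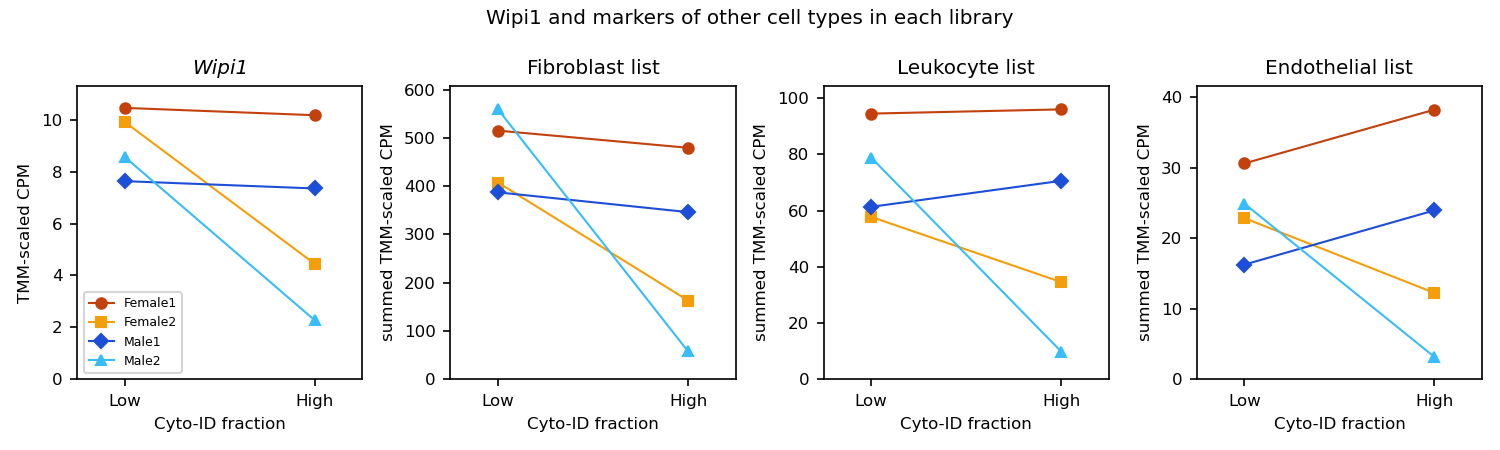
TMM-scaled CPM of Wipi1 and summed CPM of fibroblast, leukocyte and endothelial marker lists in Cyto-ID Low and High, with 1 line per animal. In Cyto-ID High all 4 panels run from Female1 at the top through Male1 and Female2 to Male2 at the bottom.

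The ratio of Wipi1 to Wipi2 spread in the same way. It was 0.190, 0.226, 0.145 and 0.170 in Low for Female1, Female2, Male1 and Male2, and 0.162, 0.0710, 0.117 and 0.0300 in High. It was lower in High in 4 of 4 animals, with an overlap between fractions. The log2 ratio went from −2.47 ± 0.27 to −3.64 ± 1.05, a difference of −1.17 (two-sided exact permutation p = 0.0571, adjusted over 4 ratios 0.190). Without High Male2 the difference was −0.71.

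**Figure D4:**
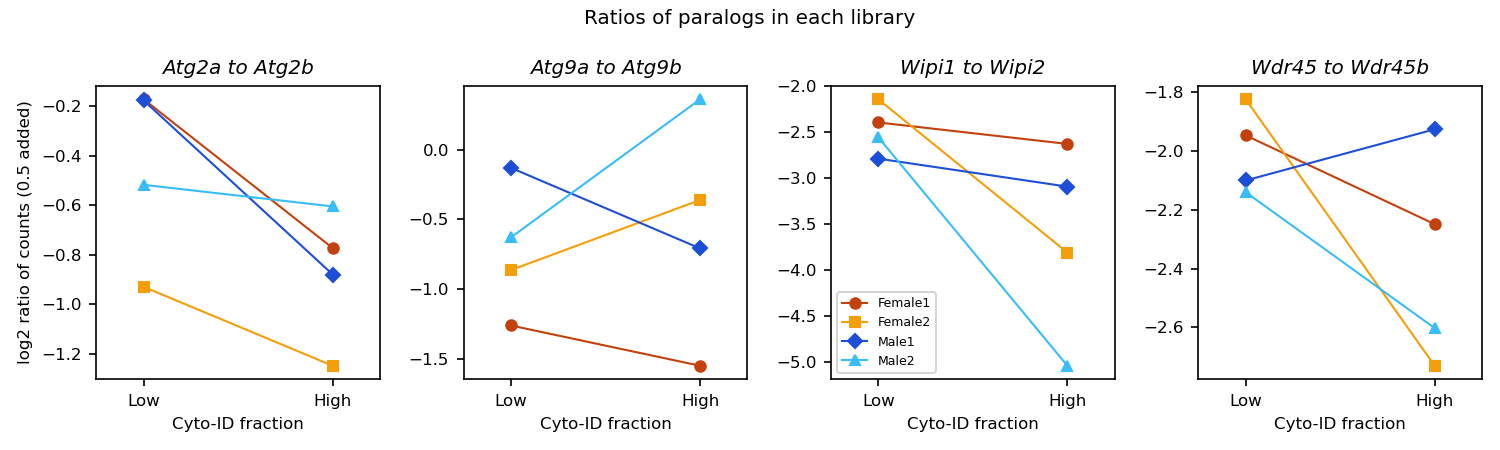
Log2 ratio of the counts of paralogs in each library, with 0.5 added to each count and 1 line per animal; each panel has its own axis. All 4 lines fall for Atg2a to Atg2b and for Wipi1 to Wipi2, and 3 fall for Wdr45 to Wdr45b, but the 2 fractions overlap in every panel.

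Epg5, the tether that acts with RAB7 at the lysosome, lies at chr18:77938465-78035013 (plus strand). It stood at 12.2, 11.7, 9.75 and 10.2 CPM in Low and at 14.3, 16.7, 17.1 and 15.5 in High. The fractions did not overlap, and the gap was smallest in Female1. Means of 11.0 ± 1.1 and 15.9 ± 1.3 CPM gave a log2 fold change of 0.54 (SE 0.14, 1.46-fold, adjusted p = 0.00987, edgeR), which was −0.015 by total counts (adjusted p = 0.940).

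Levels between genes were compared as CPM per kilobase of annotated exon. Vmp1 was the highest of the 10 in both fractions, at 31.2 ± 11.8 in Low and 31.5 ± 2.7 in High (SD over 4 libraries). In Low it was followed by Wdr45b at 10.6 ± 1.2, Atg9b at 7.26 ± 1.73, Wipi2 at 4.79 ± 0.46 and Atg2a at 4.48 ± 0.84. Below these came Wdr45 at 3.62 ± 0.11, Atg2b at 3.45 ± 0.19, Atg9a at 2.96 ± 0.27, Wipi1 at 2.08 ± 0.29 and Epg5 at 1.09 ± 0.11. From Atg9b down to Atg9a each neighbour in this order overlapped the next between libraries.

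In High the per-kilobase order below Vmp1 began with Atg9b at 14.4 ± 4.7, Wdr45b at 9.03 ± 1.37, Atg9a at 6.52 ± 1.54 and Wipi2 at 6.26 ± 0.60, which overlapped from each to the next. Atg2b at 4.82 ± 0.27 and Atg2a at 4.65 ± 0.87 overlapped each other, and Wdr45 at 2.39 ± 0.39 stood apart from its neighbours. Epg5 at 1.59 ± 0.13 and Wipi1 at 1.37 ± 0.78 came last and overlapped. Atg9a moved from place 8 to place 4, and Wdr45 from place 6 to place 8. With the longest transcript as the length, Atg9a moved from place 8 to 5, Wdr45 from 4 to 8 and Atg9b from 5 to 3, and Vmp1 stayed first.

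Exons of other genes overlap those of 5 members, and whether the counting used strand is not given in the sources used here. Atg2b shares 383 bases with Gskip on the opposite strand, which had 268 to 452 counts in Low and 436 to 672 in High and rose by a log2 fold change of 1.33 (adjusted p = 0.000173, edgeR). Atg9b shares 294 bases with Nos3 on the opposite strand, which had 21 to 59 and 50 to 83 counts and rose by 1.12 (adjusted p = 0.0164, edgeR). Atg9a shares 46 bases with Ankzf1 on the opposite strand, which had 453 to 628 and 321 to 406 counts and a log2 fold change of −0.13 (adjusted p = 0.513, edgeR). It also shares 1832 bases with Gm29253, and Wdr45 shares 818 with Gm45208, on the same strand and with 0 to 1 counts in each library. Values of these members are uncertain by what the counting assigned to either partner.

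The differences were also compared between female and male animals. The interaction of sex and fraction had an adjusted p under 0.05 for 0 of 17344 genes (0%) in edgeR's quasi-likelihood test, and an unadjusted p under 0.05 for 19 genes, or 38 in the fit with the animal as a block, both far fewer than 5% of the genes tested. For the members the male minus female difference in log2 fold change was between 0.072 and 0.33 in size, with unadjusted p from 0.292 to 0.900. No dependence on sex was called, with 2 animals of each sex.

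Genes that act beside the members were followed in 59 genes of 8 roles, of which 58 were tested and Vamp7 was not analysed here. Among these 26 were higher and 5 lower in High, against 23.4% and 25.3% of all genes, with a median log2 fold change of 0.33. By total counts 7 were higher and 23 lower, against 12.6% and 49.1% of all genes, with a median of −0.26 where that of all genes was −0.64. With the animal as a block, 28 were higher and 8 lower. The genes added by the block, named after their values were seen, were Stx7 (adjusted p = 0.00469, edgeR) and Vapb (0.0166) among the higher and Ulk2 (0.00689), Map1lc3b (0.0316) and Pik3c3 (0.0447) among the lower. Counts by role below are without the block, which adds 1 to that of each role these belong to. The list was chosen with earlier results of these data known, and no test of it as a whole was made.

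Of 14 tested genes of autophagosome and lysosome fusion, grouped here with EPG5, 9 were higher and none lower, with a median of 0.69. By total counts 3 were higher and 2 lower, with a median of 0.11. The group was not limited to direct partners of EPG5, nor sorted into genes that promote or restrain fusion. Vps18, a subunit of the HOPS tethering complex, stood at 23.0 ± 4.3 CPM in Low and 64.0 ± 19.3 in High (log2 fold change 1.44, SE 0.19, adjusted p = 0.000230, edgeR). Snap29, a SNARE of the fusion step, went from 19.0 ± 2.3 to 50.6 ± 7.6 CPM (1.41, SE 0.16, adjusted p = 6.9e-05, edgeR). Both differences kept their direction by total counts, at 0.87 and 0.84.

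Upstream of the PI3P binders, 1 of 5 genes of the ULK initiation kinase complex was higher and none lower, while by total counts 1 was higher and 4 lower. The higher one was Atg13, the regulatory subunit, at 45.0 ± 2.0 and 118 ± 19 CPM (log2 fold change 1.39, SE 0.14, adjusted p = 5.0e-05, edgeR; 0.81 by total counts). Of 7 genes of the class III PI3-kinase, which makes PI3P, 1 was higher and 1 lower, and by total counts 0 were higher and 4 lower. The lower was Pik3r4, the scaffold subunit, at 23.9 ± 3.4 and 15.5 ± 2.8 CPM (−0.63, SE 0.18, adjusted p = 0.0150, edgeR; −1.21 by total counts). Of 4 genes for PI3P phosphatases and other PI3P binders 2 were higher and none lower, and by total counts 1 was higher and 2 lower. The larger change was that of Wdfy3, which encodes the aggregate-binding scaffold ALFY, at 38.4 ± 5.0 and 137 ± 14 CPM (1.83, SE 0.15, adjusted p = 2.0e-05, edgeR; 1.27 by total counts).

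Among 9 genes of ATG9 vesicle traffic 4 were higher and 1 lower, while by total counts 0 were higher and 3 lower. The lower under TMM was Ap4m1, a subunit of the AP-4 coat that exports ATG9A from the Golgi, at 30.9 ± 3.5 and 18.2 ± 2.7 CPM (log2 fold change −0.77, SE 0.15, adjusted p = 0.00169, edgeR). Of the other AP-4 subunits, named after their values were seen, Ap4s1 was higher (0.72, adjusted p = 0.00321, edgeR; 0.16 by total counts), and Ap4e1 (−0.18) and Ap4b1 (0.13) did not pass. Of 10 genes of the conjugation machinery 4 were higher and 2 lower, while by total counts 0 were higher and 5 lower. Atg16l1, the partner of WIPI2, went from 26.8 ± 2.6 to 16.6 ± 0.8 CPM (−0.70, SE 0.13, adjusted p = 0.00157, edgeR), and Atg4c, a protease of ATG8 proteins, from 9.41 ± 1.18 to 4.46 ± 0.50 (−1.08, SE 0.17, adjusted p = 0.000603, edgeR). By total counts the differences of Ap4m1, Atg16l1 and Atg4c were −1.35, −1.26 and −1.65. Of 5 ATG8 genes 3 were higher and 1 lower, and by total counts 1 was higher and 2 lower. Of 4 genes for the scramblase and contacts of the endoplasmic reticulum 2 were higher and none lower, and by total counts 1 was higher and 1 lower.

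**Figure D5:**
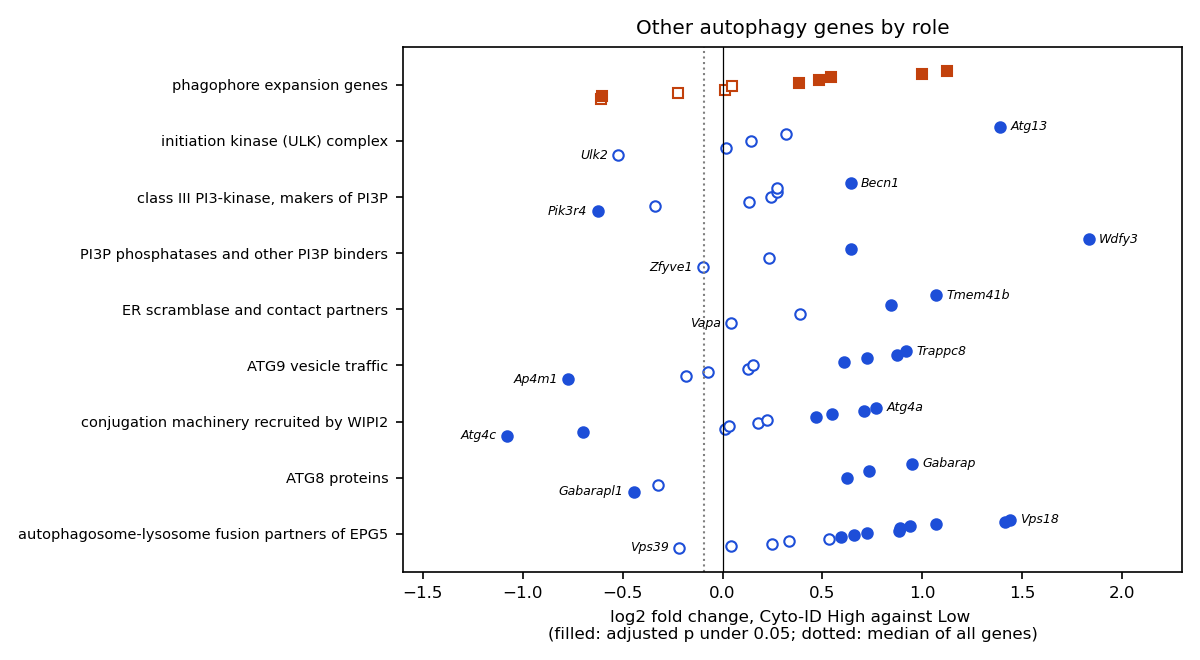
Log2 fold change (TMM scaling) of Cyto-ID High against Cyto-ID Low for the members (red squares) and 58 other autophagy genes by role (blue circles), each point 1 gene; filled points have an adjusted p under 0.05, the highest and lowest gene of a role is named and the dotted line is the median of all tested genes. The fusion genes grouped with EPG5 lie mostly right of 0, while by total counts 3 of them were higher and 2 lower, with a median of 0.11.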

How the data were processed

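The authors deposited raw counts by gene symbol in 1 table of 8 libraries, and whole numbers with unequal totals show that the unit is counts. STAR 2.7.3, DESeq2 and the build GRCm38 are named in the submitters' processing notes. The counting tool, annotation and strand setting are not given in the sources used here.

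Fractions were taken from the labels. Libraries with the same animal name were taken as pairs, since 1 suspension of each animal was sorted into both. The main fit and the exact permutation tests did not use these pairs. The differences per animal, the sign flips and the fit with the animal as a block did. Deviations from the fraction means correlated across genes at 0.43 (Female1), 0.32 (Female2), −0.02 (Male1) and 0.28 (Male2) within animals, and from −0.37 to 0.35 between animals. No 2 libraries of a fraction agreed within sampling noise (chi-square per degree of freedom at least 17.7).

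Counts were fitted in R 4.3.3 with edgeR 4.0.16 (filterByExpr, TMM, glmQLFit and glmQLFTest, sex as covariate), two-sided, with Benjamini-Hochberg adjustment over 17344 genes and a threshold of 0.05. Log2 CPM used a prior count of 2. Paralog ratios used an added count of 0.5 and exact permutation tests. Spreads are between animals, and a fraction had 4. Total counts differed little between libraries, TMM factors ran from 0.679 to 1.30, and members had 44 to 5574 counts in a library.

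The members and gene lists were chosen with earlier results of these data known. Text names every member, the 4 pathway genes with the largest and the 4 with the smallest log2 fold change among those called, Tmem41b, genes overlapping a member's exons and, for the 2 members with the smallest adjusted p, the 3 genes of at least 5 mean CPM with the highest r, leaving out predicted genes. Gskip, Nos3 and other overlaps come from GENCODE M21 (GRCm38), and promoter and miRNA sequences from RefSeq (GRCm38.p6). Alternatives tried were scaling by total counts or RLE size factors, other filters, DESeq2 1.42.0, limma-voom (limma 3.58.1), no covariate, the animal as a block, and each library left out.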

Additional observations from a re-analysis of the deposited data

Results flagged for a closer look

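Wipi2 stood at 75.4 CPM in the Cyto-ID High library of Male2, far from the other libraries of the fraction, of which the nearest was at 63.0 CPM. The gap was 0.965 of the whole range, above Dixon's 95% critical value for 4 samples. It was the only one of 28 groups of 4 libraries tested that passed, and chance gives about 1 in 20. Without this library the Wipi2 log2 fold change was 0.32 (adjusted p = 0.0892, edgeR).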

How the results depend on the processing

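Atg9a was called higher under all 21 alternatives, and RLE size factors, at least 10 counts in every library, DESeq2, limma-voom, no covariate and the paired fits left all 6 member calls in place. The numbers of members called higher and lower, 5 and 1, were 1 and 3 by total counts, 2 and 2 with no filter on low counts (where 4018 and 4729 of 35027 genes were called), and 1 and 2 with only the animals numbered 2 (3663 and 3116 of 17323). With both libraries of Male2 or of Female2 left out, 0 members were lower, where 3661 of 17701 and 3791 of 17502 genes were. In the pathway list 26 were higher and 5 lower, which became 7 and 23 by total counts, and 3 were lower with only the animals numbered 2. With the animal as a replicate block 8 pathway genes were lower, and 9336 genes were called of all tested in place of 8440, of which 8393 were shared. The block changed no member's call. Left-out libraries, 1 at a time, gave 7269 to 8106 called genes. Log2 fold changes reversed by total counts for Atg2a (−0.51), Atg2b (−0.078), Wipi2 (−0.18), Vmp1 (−0.53) and Epg5 (−0.015). Vmp1 also reversed with no filter (−0.024), without both Female2 libraries (−0.12) and with only the animals numbered 1 (−0.25), and Atg2a without both Male2 libraries (−0.012) and with only the animals numbered 1 (−0.076). Leaving out single libraries gave −0.037 to 0.18 for Atg2a and −0.18 to 0.28 for Vmp1. The difference in the log2 ratio of Atg9a to Atg9b ran from −0.15 to 0.48. The cause of these changes was not tested. With no filter, Atg2b (adjusted p = 0.0631), Wipi2 (0.196) and Epg5 (0.0618) missed the threshold and Wipi1 passed (−0.65, 0.0276), all by edgeR. With only the animals numbered 2, Atg2b, Atg9b, Wipi2 and Epg5 missed it (0.0728, 0.0655, 0.0565 and 0.0589, edgeR) and Wipi1 passed (−1.45, 0.0182). With only the animals numbered 1, Wipi2 and Wdr45 missed it and Wdr45b passed (−0.36, 0.0428, edgeR). The fits without both libraries of an animal, or with 2 animals, were added after seeing the data and hold fewer libraries. Members had 44 to 5574 counts per library, the fewest being those of Wipi1 in High Male2, and the part of counting error in its spread was not tested.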
